A study of Mus musculus with 6 samples.

Results

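The genes described here are 9 interferon-linked genes of the mouse, followed through cultured small intestinal organoids. They are Ifitm1, Ifitm2, Ifitm3, Slfn2, Slfn9, Isg15, Ifit1, Bst2 and Irf7, found by symbol among the 32285 genes counted in every library, and all 9 were measured. They were picked for how their levels differed between WT organoids and CRISPR-Cas9 organoids, so that contrast is given as a description, without a test.

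Organoids are epithelial cultures grown from intestinal crypts, with stem cells, dividing progenitors and differentiated cells. Single-cell RNA-sequencing had been done at day 3 on 6 libraries. WT organoids, from stocks of adult mice 10 weeks of age, were cultured without EIPA (DMSO; n = 2 libraries, -EIPA) or with 5 µM EIPA (n = 2, +EIPA), an amiloride derivative that inhibits Na+/H+ exchange. The inducible CRISPR-Cas9 organoids were WT organoids infected with a lentivirus carrying a guide and a Dox-inducible Cas9, selected in puromycin and grown as single clones, without Dox (n = 1, -Dox) or with 2 µg/mL Dox (n = 1, +Dox). Live cells were sorted, and for +Dox live GFP+ cells, so Dox and the GFP gate cannot be told apart. With 1 CRISPR library per condition, line, clone, viral infection, selection and library cannot be told apart either. The -Dox library carried the construct without its inducer. The strain and the sex of the WT stock are not given in the sources used here. The 2 WT experiments are written -EIPA 1, -EIPA 2, +EIPA 1 and +EIPA 2, where the number is the replicate in the labels.

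Interferons are secreted proteins that signal infection. Type I and type III interferons bind receptors that activate kinases of the JAK family, and a complex of STAT proteins with IRF9 then enters the nucleus and binds a DNA element called the ISRE, while interferon gamma acts through STAT pairs on the GAS element. Intestinal epithelial cells answer type III interferons in particular, and intestinal stem cells are known to express some of these genes without interferon. IFITM proteins sit in membranes and hinder virus entry. ISG15 is a ubiquitin-like protein that is coupled to other proteins, IFIT1 binds viral RNA with a foreign cap, BST2 (tetherin) holds budding viruses at the cell surface, and IRF7 is a transcription factor that amplifies interferon production. Schlafen proteins are a rapidly evolving family, and Slfn2 is known for keeping lymphocytes quiescent.

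The promoters were inspected for the elements that these pathways use, because the genes share a name for interferon but not a pattern in these organoids. RefSeq promoters of GRCm38.p6, 250 bases before to 50 bases after each start, were found for all 9 genes. The ISRE core was searched as GAAA, any 2 bases and GAAA again, and GAS as TTCNNNGAA, on both strands. The ISRE core was present in 3.44% of 32851 promoters of the genome and GAS in 8.30%. Isg15 held 3 overlapping ISRE cores, Ifitm3, Ifit1 and Bst2 held 2, and Ifitm2 and Slfn9 held 1. No match lay in these windows of Ifitm1, Irf7 and Slfn2. The Ifitm1 window, chr7:140967826-140968125, follows its RefSeq start and lies inside the gene as placed by GENCODE, which starts at 140967221. The bases before that GENCODE start were not searched. Ifitm3 and Bst2 each also held 1 GAS match, which overlapped an ISRE core. The windows below carry the ISRE matches in capitals, each read 5′ to 3′ on the strand of its gene, so that a core on the other strand reads as TTTC, 2 bases and TTTC.
Isg15, chr4:156200871-156200900, minus strand: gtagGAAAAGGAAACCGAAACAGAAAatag
Ifit1, chr19:34640775-34640804, plus strand: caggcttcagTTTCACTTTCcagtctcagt
Ifit1, chr19:34640794-34640823, plus strand: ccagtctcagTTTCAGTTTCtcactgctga
Bst2, chr8:71537580-71537609, minus strand: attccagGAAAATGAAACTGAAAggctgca
Ifitm2, chr7:140955988-140956017, minus strand: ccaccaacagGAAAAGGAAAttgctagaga
Ifitm3, chr7:141010723-141010752, minus strand: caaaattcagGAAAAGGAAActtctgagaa
Ifitm3, chr7:141010706-141010735, minus strand: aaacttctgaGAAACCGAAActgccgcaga
Slfn9, chr11:82991856-82991885, minus strand: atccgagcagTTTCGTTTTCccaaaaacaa
Both Ifitm3 cores began at bases 3 and 20 of the transcribed part, counted from 1 at the RefSeq start, whereas those of the other 5 genes lay upstream of it. The same promoters held between 2 (Slfn2) and 11 (Bst2) CpG dinucleotides in 300 bases, against a median of 7 over all promoters. A match is a string of letters and does not show a bound site.

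After cells with fewer than 1000 genes or with 20% or more mitochondrial UMIs were left out, 12083 to 18211 cells and 161670015 to 239368573 UMIs (unique molecular identifiers, 1 for each captured RNA) remained per library. Levels are given as CPM, UMIs per 1000000 UMIs summed over the cells of a library or class. The kit tags the 3′ end of each RNA, so CPM does not scale with gene length, and levels are compared for 1 gene at a time. Pairs of libraries shared 33 to 78 cell barcodes, at most 0.563% of the smaller library. Immune markers stayed at 1.10 to 1.81 CPM in sum, with 0 of 10 markers at 1 CPM in any library and no T cell marker over 0.0127 CPM. Stromal and endothelial markers summed to 6.84 to 13.5 CPM in WT and to 0.696 and 0.921 CPM in CRISPR organoids, with 1 of 9 at 1 CPM (Vim, which was also among the leading genes of an EEC-like cluster) and Cdh5 at 0 in all 6 libraries.

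Between the lines, 5 of the 9 genes stood over 2-fold higher in -Dox than in both -EIPA libraries, where 2.11% of 12051 genes at 1 CPM or more did. They were Ifitm3, Slfn2, Slfn9, Isg15 and Ifit1. None of the 9 stood over 2-fold lower, where 3.96% of all genes did. Since this contrast chose the genes, nothing is read from these shares. Bst2 and Irf7, both known as interferon-induced, were 1.14-fold higher and 1.05-fold lower. Over all genes the median log2 ratio of -Dox over the mean of -EIPA was 0.07. In bulk sums of this kind, fewer cells of a type and less RNA per cell cannot be told apart, and the values within cell classes are given further on.

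**Figure D1:**
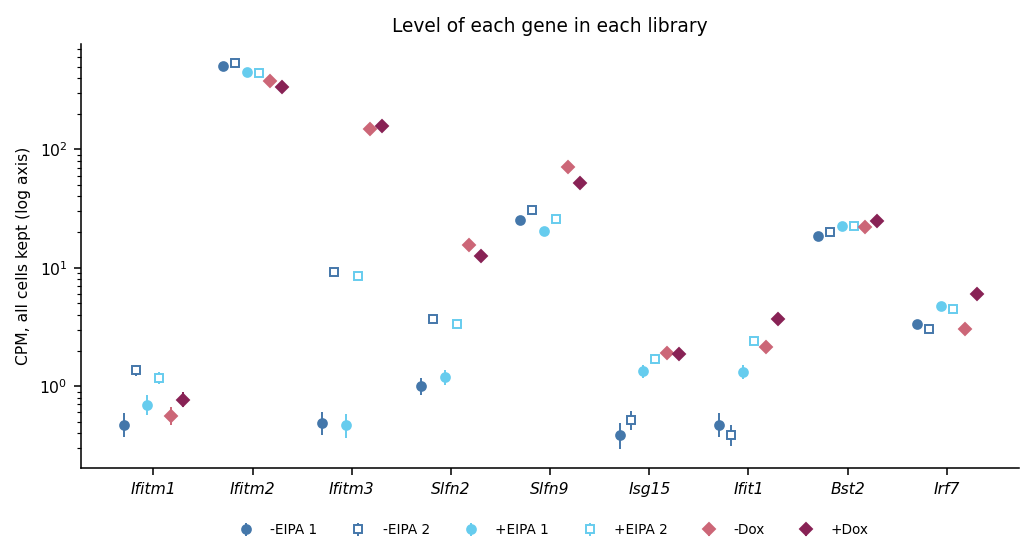
Level of each gene in each library, in CPM over all cells kept, on a log axis. Each point is 1 library (circles and squares, WT replicates 1 and 2; diamonds, CRISPR) and bars are exact 95% Poisson intervals, which cover counting error only. Ifitm3 spans 0.466 to 159 CPM, with WT replicates 2 between WT replicates 1 and CRISPR, while Bst2 stays between 18.4 and 24.9 CPM.

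Ifitm3, which restricts viruses in endosomes, lies on the minus strand of chromosome 7 (mm10 chr7:141009586-141010770). Its level was 0.489 and 9.23 CPM in -EIPA 1 and 2, 0.466 and 8.50 CPM in +EIPA 1 and 2, and 149 and 159 CPM in -Dox and +Dox. The gene was thus nearly silent in both libraries of WT experiment 1, low in both of experiment 2 and high in both CRISPR libraries, with no overlap between the lines. The -Dox level was 30.7-fold above the -EIPA mean (log2 ratio 4.94), and 4.01 or 8.25 on the log2 scale above the single -EIPA libraries. The lowest CRISPR library was 16.2-fold above the highest WT library. Replicate 2 exceeded replicate 1 by 18.9-fold without and 18.3-fold with EIPA. The levels of experiment 1 rest on 79 UMIs in -EIPA 1 and 77 in +EIPA 1.

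Ifitm1 and Ifitm2, close relatives in the same cluster of genes, did not follow Ifitm3 between the lines. Ifitm2 (chr7:140954837-140955987, minus strand) was at 502, 532, 451 and 441 CPM in -EIPA 1, -EIPA 2, +EIPA 1 and +EIPA 2, and at 381 and 336 CPM in -Dox and +Dox. Both CRISPR libraries thus lay below all 4 WT libraries, with -Dox 1.36-fold below the -EIPA mean. Ifitm1 (chr7:140967221-140969825, plus strand) rested on 76 to 325 UMIs per library. Its level was 0.470, 1.36, 0.696 and 1.17 CPM in the WT libraries, in the same order, and 0.563 and 0.769 CPM in -Dox and +Dox. The CRISPR values fell inside the WT range. Within WT, however, both Ifitm1 values of experiment 2 lay above both of experiment 1, as for Ifitm3. Replicate 2 exceeded replicate 1 by 2.89-fold without and 1.69-fold with EIPA. IFITM and Schlafen genes have near-identical relatives whose reads the counting could assign to one another or drop, which was not tested.

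Slfn2 (chr11:83065112-83070678, plus strand) was at 0.996, 3.70, 1.19 and 3.33 CPM in the WT libraries and at 15.7 and 12.5 CPM in -Dox and +Dox. Like Ifitm3, it was lowest in experiment 1, higher in experiment 2 and highest in CRISPR, with -Dox 6.69-fold above the -EIPA mean. The log2 ratio was 2.74, or 2.09 and 3.98 without -EIPA 1 and without -EIPA 2, and 2.10 with each class given equal weight. Its replicate 2 was 3.71-fold and 2.81-fold above replicate 1 without and with EIPA. Slfn9 (chr11:82978390-82991830, minus strand), a longer family member, was at 25.2, 30.8, 20.5 and 25.9 CPM in WT and at 71.3 and 51.6 CPM in -Dox and +Dox. Slfn9 was 2.55-fold higher in -Dox than in -EIPA, and its WT replicates differed by 1.22-fold and 1.26-fold.

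Isg15 (chr4:156199424-156200818, minus strand) was low in every library. It was at 0.383 and 0.514 CPM in -EIPA, at 1.33 and 1.70 CPM in +EIPA, and at 1.91 and 1.88 CPM in -Dox and +Dox, from 62 to 445 UMIs. Its CRISPR libraries lay above all WT libraries, but by only 1.11-fold over +EIPA 2. Ifit1 (chr19:34640871-34650009, plus strand) was at 0.470 and 0.384 CPM in -EIPA, 1.31 and 2.41 CPM in +EIPA, and 2.14 and 3.69 CPM in -Dox and +Dox. Against -EIPA, -Dox was 4.25-fold higher for Isg15 and 5.02-fold higher for Ifit1 (log2 ratios 2.09 and 2.33, and 1.05 and 1.77 with each class given equal weight), while the Ifit1 values of +EIPA 2 and -Dox overlapped the other line. Both genes were therefore lowest in the 2 WT libraries without EIPA and higher in the other 4. There Isg15 was at 1.33 to 1.91 CPM and Ifit1 at 1.31 to 3.69 CPM.

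Bst2 (chr8:71534255-71537456, minus strand) was at 18.4, 20.2, 22.4 and 22.6 CPM in the WT libraries and at 22.0 and 24.9 CPM in -Dox and +Dox. Irf7 (chr7:141262706-141266481, minus strand) was at 3.34 and 3.01 CPM in -EIPA, 4.79 and 4.45 CPM in +EIPA, 3.01 CPM in -Dox and 5.94 CPM in +Dox. For both genes the lines overlapped.

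Counted without a fold limit, both CRISPR libraries lay above all 4 WT libraries for 4 of the 9 genes (Ifitm3, Slfn2, Slfn9 and Isg15), where 28.5% of all genes did. They lay below them for Ifitm2 alone, where 12.4% of all genes did. The -EIPA libraries of both experiments are part of the contrast that chose the genes, so their split is a description too. Ifitm3 and Slfn2, 2 of the 9, were over 2-fold higher in replicate 2 than in replicate 1 both without and with EIPA, where 1.04% of all genes were. None of the 9 was over 2-fold lower, where 0.481% of all genes were. Other genes, found after their values were seen, also split the 2 WT experiments, but unlike Ifitm3 and Slfn2 their experiment 2 lay near the CRISPR level. Wdr89 was at 25.2 and 23.8 CPM in -EIPA 1 and +EIPA 1 and at 161 to 171 CPM in the other 4 libraries, and Rnaset2a was at 10.8 and 10.4 CPM against 70.8 to 89.1 CPM. What sets the 2 WT experiments apart was not tested.

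Cells were grouped into 8 classes by clustering, with the 9 genes and the interferon pathway genes kept out, and classes were named from known markers. ISC-like cells (1193 to 2542 per library, led by Olfm4, Gkn3 and Lgr5), cycling-like, enterocyte-like, goblet-like, Paneth-like, EEC-like (enteroendocrine), tuft-like and regenerative-like cells (138 to 595, led by Sprr1a, Clu and Anxa1) were named in every library. Tuft-like cells were few, with 53 in +Dox. In each class the same cluster held the most cells in all 6 libraries.

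**Figure D2:**
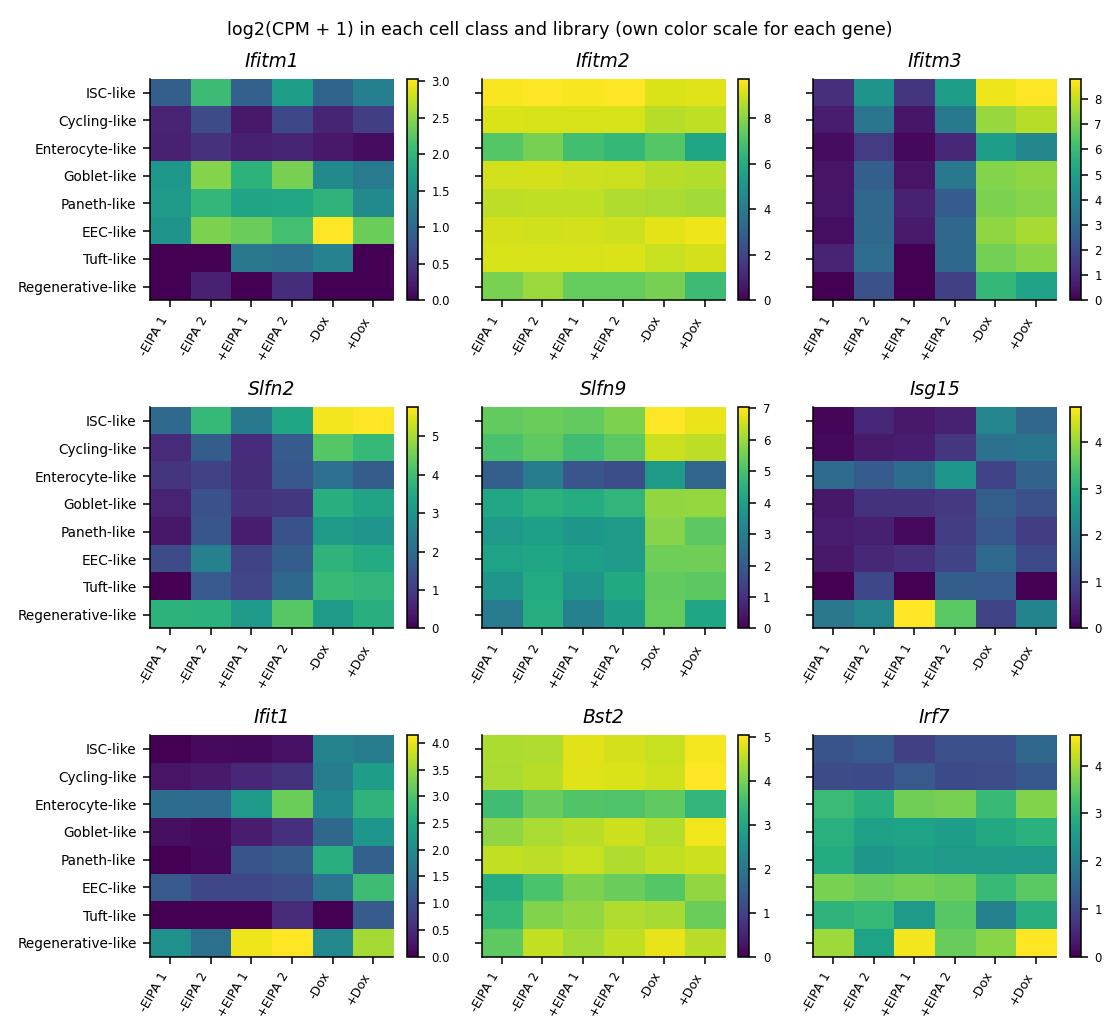
log2(CPM + 1) of the 9 genes in the 8 cell classes (rows) and 6 libraries (columns), with a color scale of its own for each gene that starts at 0. Ifitm3 and Slfn9 are brightest in ISC-like cells of both CRISPR libraries, while Isg15 and Ifit1 are brightest in regenerative-like cells of the +EIPA libraries.

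Ifitm3 was highest in ISC-like cells in every library. There it was at 1.30 and 22.6 CPM in -EIPA 1 and 2, 1.56 and 29.2 CPM in +EIPA 1 and 2, and 379 and 444 CPM in -Dox and +Dox. Cycling-like cells were lower, at 0.577 and 9.88 CPM in -EIPA, 0.437 and 10.8 CPM in +EIPA, and 174 and 230 CPM in -Dox and +Dox. Enterocyte-like cells were among the lowest, at 0.15 to 1.95 CPM in WT and 29.3 and 15.7 CPM in -Dox and +Dox. The ratio between the lines was nevertheless alike in the 2 crypt classes, with log2 ratios of 4.99 in ISC-like and 5.06 in cycling-like cells. In each of these 3 classes both CRISPR libraries lay above the WT libraries, and both libraries of experiment 2 lay above both of experiment 1.

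Slfn2 was also highest in ISC-like cells of the CRISPR organoids, at 49.6 and 53.5 CPM, against 2.90 to 13.6 CPM in ISC-like cells of the WT libraries. The regenerative-like cells went another way. Slfn2 was there at 12.4, 11.9, 7.56 and 18.3 CPM in the WT libraries and at 7.97 and 11.4 CPM in -Dox and +Dox, so that the lines overlapped. Its log2 ratio between the lines ranged from -0.61 in regenerative-like to 3.66 in cycling-like cells. Paneth-like and tuft-like cells were left out of this range, since an -EIPA library had 3 or fewer Slfn2 UMIs there. Slfn9 had a more even ratio of -Dox over -EIPA, between 1.34 and 1.94 on the log2 scale in all 8 classes. It was at 40 to 49.0 CPM in ISC-like cells of WT and at 131 and 113 CPM in those of -Dox and +Dox, but at 2.19 to 6.76 CPM in enterocyte-like cells of WT. In +Dox, however, Slfn9 lay inside the WT range in enterocyte-like cells, at 3.95 CPM. The same held in regenerative-like cells, at 17.1 CPM against 6.45 to 19.8 CPM in WT.

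Ifitm2 was high in every class except enterocyte-like and regenerative-like cells. In ISC-like cells it was at 788, 826, 787 and 840 CPM in the WT libraries and at 596 and 610 CPM in -Dox and +Dox. EEC-like cells reversed that order, with 507 to 547 CPM in WT and 642 and 712 CPM in -Dox and +Dox. EEC-like cells were not the same mix in both lines. Their largest cluster held 38.5% to 40.3% of them in WT and 66.7% and 67.6% in -Dox and +Dox. Gip, a hormone of enteroendocrine K cells, was at 308 to 529 CPM in WT over all cells kept and at 0 and 0.0338 CPM in CRISPR. Ifitm1 was at 1.39 to 7.19 CPM in goblet-like, Paneth-like and EEC-like cells and at 0.889 to 3.21 CPM in ISC-like cells.

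Isg15 and Ifit1 had line ratios that depended on the class. Isg15 in cycling-like cells was at 0.0744 and 0.262 CPM in -EIPA, 0.306 and 0.691 CPM in +EIPA, and 2.48 and 2.58 CPM in -Dox and +Dox, a 14.8-fold ratio of -Dox over -EIPA. Ifit1 in cycling-like cells was at 0.167 and 0.234 CPM in -EIPA, 0.371 and 0.518 CPM in +EIPA, and 2.33 and 3.95 CPM in -Dox and +Dox, an 11.6-fold ratio. In enterocyte-like cells, in contrast, Isg15 was at 2.18 and 1.60 CPM in -EIPA and at 0.933 CPM in -Dox, a log2 ratio of -1.02. That -Dox value rests on 24 UMIs, and its interval overlapped that of -EIPA 2. Isg15 in +Dox, at 1.85 CPM, lay between the -EIPA values. Ifit1 was at 1.75 and 1.74 CPM in -EIPA and 2.84 CPM in -Dox, a log2 ratio of 0.70, and at 5.48 CPM in +Dox. Ifit1 also differed in Paneth-like cells, with 0 and 1 UMIs in -EIPA and 52 in -Dox. In goblet-like cells it had 1 and 1 against 19 UMIs. The EEC-like ratio was 2.02-fold, but on 5 and 9 UMIs in -EIPA and 7 in -Dox, with overlapping intervals. In ISC-like cells Ifit1 had 0 to 3 UMIs in each WT library and 64 and 48 in -Dox and +Dox.

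Irf7 had its own order of classes. It was at 5.43 to 23.9 CPM in regenerative-like, 7.79 to 12.0 CPM in EEC-like and 6.55 to 12.5 CPM in enterocyte-like cells, but at 0.843 to 1.91 CPM in ISC-like cells. ISC-like cells, the highest class for Ifitm3, were thus low for Irf7. Bst2 varied least, at 7.86 to 32.3 CPM over all classes and libraries.

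The number of cells that carried Ifitm3 was compared after each cell had been thinned to 5000 UMIs, with 5 to 174 shallower ISC-like cells left out per library. Among ISC-like cells, 0.626% (95% exact binomial interval 0.287 to 1.19) in -EIPA 1 and 5.57% (4.68 to 6.58) in -EIPA 2 had at least 1 Ifitm3 UMI. The shares were 0.627% and 6.89% in +EIPA 1 and 2, and 80.6% (78.8 to 82.3) and 85.7% (83.6 to 87.6) in -Dox and +Dox. Most stem-like cells of the CRISPR organoids thus carried it, and few of those in WT did. Without thinning the shares were 1.22%, 8.06%, 1.44%, 11.1%, 95.2% and 98.7% in the same order, at median depths of 10084.5 to 14670 UMIs. Enterocyte-like cells, the class with the lowest level in the CRISPR libraries, gave 0% to 0.469% in WT, where 0 of 1049 cells in -EIPA 1 had a UMI (upper 95% exact binomial bound 0.351%), and 9.24% and 5.15% in -Dox and +Dox, at median depths of 8845 to 16249 UMIs. Intervals cover counting error only, and free RNA was not removed.

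**Figure D3:**
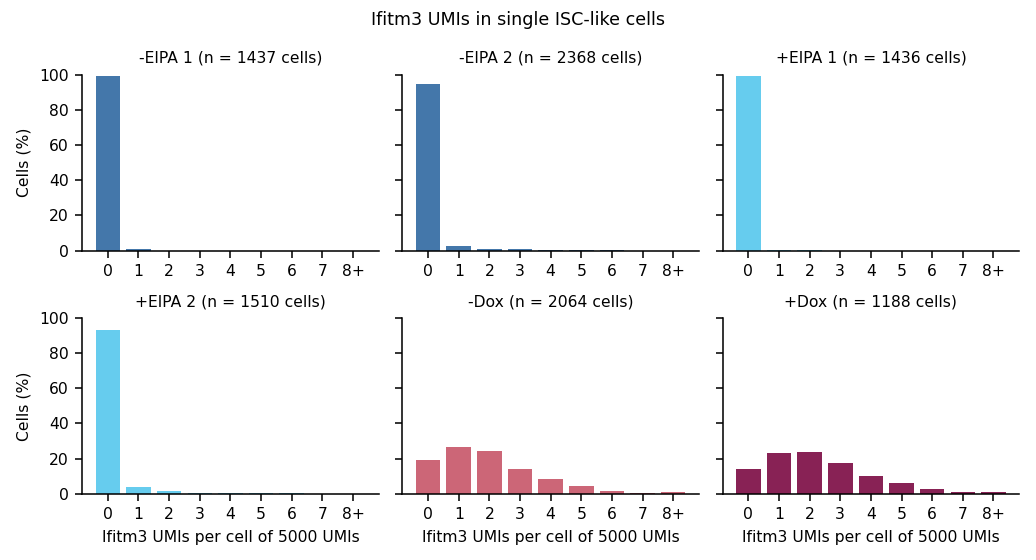
Share of ISC-like cells (%) by their number of Ifitm3 UMIs after thinning to 5000 UMIs per cell, 1 panel per library. Over 93% of the cells have no UMI in the WT libraries, and 2 or more is common in -Dox and +Dox, where 80.6% and 85.7% have at least 1.

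The WT cells that did carry Ifitm3 were set beside the CRISPR cells. In -EIPA 2, 122 of 2542 ISC-like cells had 2 or more Ifitm3 UMIs, and in +EIPA 2, 100 of 1516 had. Ifitm3 was at 387 and 363 CPM in the sum of these cells, against 425 and 462 CPM in the 1772 and 1123 ISC-like cells of -Dox and +Dox with 2 or more. They were chosen by their Ifitm3 UMIs, so these levels are a description. The other genes of these WT cells were read beside them. Slfn9 was at 36.4 and 48.1 CPM in them, against 132 and 114 CPM in the CRISPR cells. Isg15 and Ifit1 had 0 UMIs in both sets, which allows up to 2.63 and 2.57 CPM at the upper 95% Poisson bound. Isg15 was at 3.50 CPM (2.76 to 4.39) in the -Dox cells, whose interval lay above both bounds, and at 2.05 CPM (1.46 to 2.79) in the +Dox cells, whose interval reached them. Ifit1 was at 2.38 CPM (1.77 to 3.13) and 2.46 CPM (1.81 to 3.26) in -Dox and +Dox, and was not set apart from the WT cells at this depth. Psmb8, an immunoproteasome subunit that was nearly absent from CRISPR cells (0.280 and 0.0512 CPM), was at 5.71 CPM (2.46 to 11.2) and 1.39 CPM (0.169 to 5.03) in them, on 8 and 2 UMIs, and the second interval overlapped those of the CRISPR cells. Slfn2 was at 25.7 CPM (18 to 35.5) in the Ifitm3-carrying cells of -EIPA 2 and at 12.6 CPM (11.3 to 14.1) in its ISC-like cells without Ifitm3. In +EIPA 2 the intervals overlapped, at 11.1 CPM (6.37 to 18.1) and 9.14 CPM (7.79 to 10.7). Conversely, the 100 ISC-like cells of -Dox without an Ifitm3 UMI still had Slfn2 at 61.1 CPM and Slfn9 at 106 CPM.

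The rest of the interferon pathway was described from lists of 122 genes by role, of which 118 were in the files and 67 reached 1 CPM in a library. None of the 9 interferons on the list did. In -Dox, 4 of the 67 were over 2-fold higher than in both -EIPA libraries (Ifi44, Oasl2, Slfn4 and Cxcl10) and 2 were over 2-fold lower (Ly6a and Psmb8), beside 2.11% and 3.96% of all genes. The median log2 ratio of the list was 0.10, close to the 0.07 of all genes. Most of the listed genes thus lay within 2-fold of their WT level in the CRISPR line.

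Receptors and signal carriers lay close to WT. Ifnar2, a chain of the type I receptor, had a log2 ratio of -0.33 and Ifngr2, a chain of the interferon gamma receptor, 0.20. Irf9 was at 3.02 to 3.93 CPM over the 6 libraries. Jak2 and Irf8 had log2 ratios of 0.21 and 0.18. The DNA sensor Cgas and the kinase Tbk1, which passes on its signal, were at 0.63 and 0.43. The proteasome subunit Psmb10 and the class I molecule H2-K1 were at -0.28 and 0.26.

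Of 23 antiviral effectors at 1 CPM, 2 were over 2-fold higher in -Dox and 1 lower, with a median log2 ratio of 0.13. Ly6e, a surface protein known as interferon-induced, was at 101, 177, 116 and 197 CPM in the WT libraries and at 322 and 350 CPM in -Dox and +Dox, so that, as for Ifitm3 and Slfn2, both libraries of experiment 2 lay above both of experiment 1 and both CRISPR libraries lay highest. Ly6a (Sca-1) was at 5.73 and 11.5 CPM in -EIPA, 23.4 and 51.9 CPM in +EIPA, 1.86 CPM in -Dox and 11.4 CPM in +Dox. Psmb8, of the antigen presentation list, was at 2.41 to 3.88 CPM in WT and at 0.116 and 0.0760 CPM in CRISPR. In both CRISPR libraries Ly6e was thus above and Psmb8 below all 4 WT libraries, while Ly6a was below them in -Dox alone.

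The neighbours of the genes on the chromosome were read at 5 CPM or more within 500 kb. Of 33 neighbours of Ifitm3, 2 differed over 2-fold between the lines, Urah (log2 ratio -3.20) and Sct, the secretin gene of EEC cells (-6.66), and both were lower. None of the 33 was over 2-fold higher. Over all genes at 1 CPM or more, 2.11% were over 2-fold higher and 3.96% over 2-fold lower, so the counts of neighbours are a description. Slfn2 and Slfn9 had 10 neighbours each, and the only one over 2-fold was the other Schlafen gene. Around Ifitm3 and the Schlafen pair, no other neighbour at this level was thus over 2-fold higher. Slfn4 and Slfn8, which stayed under the 5 CPM limit, were also higher in -Dox, Slfn4 at 0.670 CPM against 0.0309 and 0.0919 CPM in -EIPA and Slfn8 at 0.451 CPM against 0.111 and 0.0710 CPM. Ifit1 had 1 higher neighbour of 8 (Slc16a12, 2.04), Isg15 had 1 lower of 17 (C1qtnf12, -3.68) and Bst2 none of 17.

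**Figure D4:**
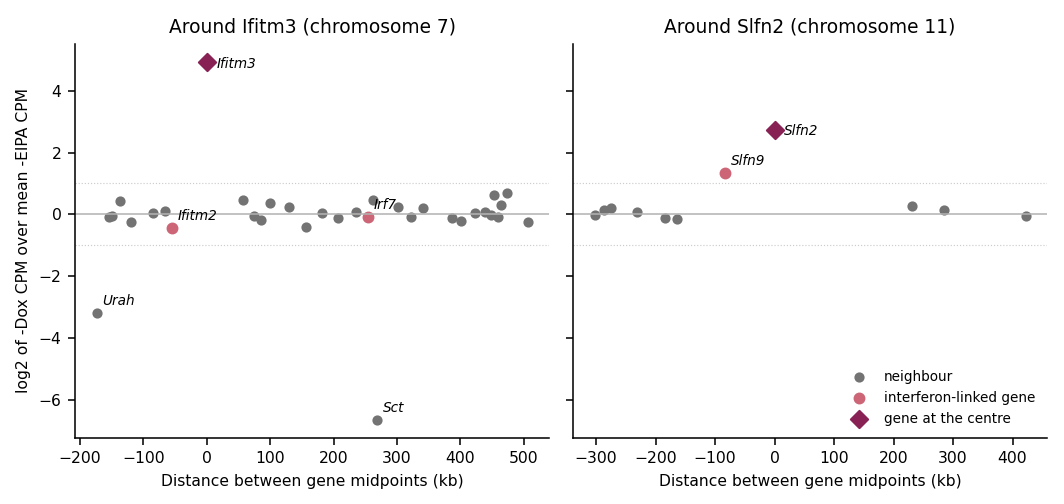
log2 ratio of -Dox CPM over the mean -EIPA CPM for genes within 500 kb of Ifitm3 (left) and of Slfn2 (right), against the distance between gene midpoints in kb. Each point is 1 gene and dotted lines mark a 2-fold difference. Ifitm3 stands at 4.94 with neighbours from -6.66 to 0.68, and Slfn2 at 2.74 with Slfn9 at 1.35 as its highest neighbour.

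The genes most like each of the 9 were taken by Pearson r of log2(CPM + 1) over 48 sums (8 classes in 6 libraries), which share cells' library and depth, and are given as a description. The nearest to Ifitm3 were Hoxb9 (r = 0.92), Tomm7 (0.91), Hoxd8 (0.90), Hoxd4 (0.89) and Hoxb7 (0.89). Hox genes are transcription factors known to be set by position along the body and gut. Over all cells kept Hoxb9 was at 0.00619, 0.393, 0.0182 and 0.426 CPM in the WT libraries and at 13.5 and 13.4 CPM in -Dox and +Dox. Hoxd8 was at 0 to 0.00430 CPM in WT and at 7.4 and 5.86 CPM in CRISPR. Hoxb9 was thus, like Ifitm3, higher in experiment 2 than in experiment 1 and highest in CRISPR. Among other genes picked after their values were seen, Meis2 was at 1.08 to 1.73 CPM in WT and 29.9 and 29.6 CPM in CRISPR, and Apobec3, which restricts retroviruses, was at 22.8 to 30.9 CPM in WT and 0.331 and 0.380 CPM in CRISPR. The part of these genes in the differences described here was not tested.

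The other genes had other companions. Slfn9 was most like Pus7 (r = 0.97), Atad2 (0.97) and the replication helicase subunit Mcm7 (0.96), which are genes of growing cells. Ifitm2 was most like Eif3m (0.98) and Cdk4 (0.96). Irf7 was most like Sqstm1 (0.92) and the cell cycle inhibitor Cdkn1a (0.92), and Ifit1 like Fgl2 (0.84) and Muc3 (0.81). Slfn2 (Sox21, 0.81), Bst2 (Rps27l, 0.80) and Ifitm1 (Ppib, 0.85) had weaker leading likenesses. Among the 9 genes themselves, r was 0.81 for Isg15 and Ifit1, 0.75 for Ifitm3 and Slfn2 and 0.74 for Ifitm3 and Slfn9, but 0.11 for Ifitm3 and Isg15. The 9 genes thus fell into more than 1 pattern.

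EIPA was tested in WT organoids alone, where 2 libraries per group had been made, by edgeR's quasi-likelihood test with Benjamini-Hochberg adjustment over all genes. Isg15 and Ifit1 were higher with EIPA in both experiments, by 3.47-fold and 3.31-fold for Isg15 and by 2.79-fold and 6.28-fold for Ifit1, and so were Irf7 (1.43-fold and 1.48-fold) and Bst2 (1.21-fold and 1.12-fold) over all cells kept. The ratio for Irf7 was not above 1 in every class. Enterocyte-like cells, at 6.55 to 11.9 CPM of Irf7 against 0.843 to 1.48 CPM in ISC-like cells, made up 10.7% and 7.41% of cells in -EIPA and 13.7% and 12.2% in +EIPA. The part of this share in the Irf7 values over all cells was not tested. None of the 9 passed the test at an adjusted p of 0.05 without a term for the experiment, where 0% of 15890 genes were called and 1601 had an unadjusted p under 0.05. With the experiment as a replicate block, 4 of the 9 were called, all higher with EIPA, where 5.28% of all genes were called. The -EIPA libraries were also part of the contrast that chose the genes. Nothing is therefore read from this share, or from those within classes below. The source data pair the libraries by experiment. DESeq2 without the block called 614 genes, with Isg15, Ifit1 and Irf7 among them.

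For Isg15 the log2 fold change was 1.84 (SE 0.28, edgeR adjusted p = 0.241), and with the replicate block 1.84 (SE 0.17, adjusted p = 0.0206). For Ifit1 it was 2.22 (SE 0.39, edgeR adjusted p = 0.249), and with the block 2.18 (SE 0.32, adjusted p = 0.0377). For Irf7 it was 0.62 (SE 0.12, edgeR adjusted p = 0.263), and with the block 0.63 (SE 0.09, adjusted p = 0.0377). For Bst2 it was 0.30 (SE 0.08, edgeR adjusted p = 0.356), and with the block 0.30 (SE 0.05, adjusted p = 0.0454). The block left the size of each change as it was and lowered its error. The other 5 genes had fold changes closer to 0. The log2 fold change was -0.01 for Ifitm3 (SE 1.69), 0.03 for Slfn2 and -0.18 for Slfn9 (SE 0.18), and -0.13 for Ifitm2 (SE 0.08) and 0.11 for Ifitm1 (SE 0.59). None of these 5 was called with the block either (adjusted p from 0.116 to 0.956). The difference between the lines and the change with EIPA share the -EIPA libraries, so the 2 sets of values are given side by side only.

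**Figure D5:**
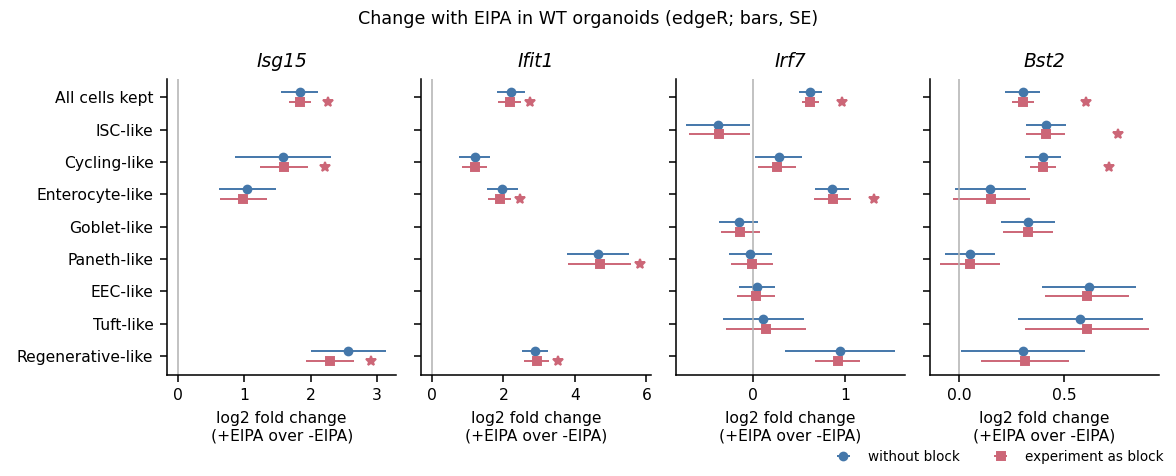
log2 fold change of +EIPA over -EIPA in WT organoids by edgeR, for Isg15, Ifit1, Irf7 and Bst2, over all cells kept and in each class (rows). Points are estimates (circles without, squares with the experiment as a block), bars are SE, and a star marks an adjusted p under 0.05, which was reached with the block alone. Classes where a gene had too few counts to be tested have no point.

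Within classes, the test without the block called none of the 5 to 9 genes that could be tested in each class. The share of all genes called was 0% in ISC-like, cycling-like, goblet-like and regenerative-like cells, 0.041% in tuft-like, 0.0812% in EEC-like, 0.0936% in enterocyte-like and 0.228% in Paneth-like cells. Unadjusted p under 0.05 was found for 359 genes in EEC-like cells, the fewest, and for 2502 in enterocyte-like cells, the most. With the block there were 12 calls over the 8 classes, and these are described next.

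In regenerative-like cells Isg15 rose from 2.69 and 3.55 CPM in -EIPA to 25.9 and 10.6 CPM in +EIPA (with the block, edgeR log2 fold change 2.29, SE 0.36, adjusted p = 0.0185), where 1.31% of genes were called. Ifit1 rose there from 3.22 and 1.88 CPM to 15.5 and 16.7 CPM (with the block, edgeR log2 fold change 2.93, SE 0.34, adjusted p = 0.0122). These -EIPA levels rest on 5 and 17 UMIs for Isg15 and on 6 and 9 UMIs for Ifit1. In enterocyte-like cells, where 15.1% of genes were called, Ifit1 rose from 1.75 and 1.74 CPM to 3.70 and 8.32 CPM (1.89, SE 0.31, adjusted p = 8.13e-05) and Irf7 from 7.93 and 6.55 CPM to 11.4 and 11.9 CPM (0.87, SE 0.20, adjusted p = 0.00316). The same cells had less Ifitm2, from 143 and 211 CPM to 108 and 87.7 CPM (-0.66, SE 0.16, adjusted p = 0.00609), and less Slfn9, from 3.37 and 6.76 CPM to 2.60 and 2.19 CPM (-0.86, SE 0.30, adjusted p = 0.0486). Enterocyte-like cells thus moved in 2 directions, with Ifit1 and Irf7 higher and Ifitm2 and Slfn9 lower. The mix of these cells moved as well, since the larger of their clusters held 60.6% and 47.2% of them in -EIPA and 68.4% and 66.4% in +EIPA, whose part in these changes was not tested.

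Bst2 was called higher with EIPA in the crypt classes. In ISC-like cells, where 6.64% of genes were called with the block, it went from 20.7 and 20.8 CPM to 27.4 and 25.5 CPM (log2 fold change 0.41, edgeR adjusted p = 0.0013). In cycling-like cells, where 5.23% were called, it went from 20.2 and 21.8 CPM to 26.9 and 26.4 CPM (0.40, adjusted p = 0.0046), and Isg15 rose as well (1.60, adjusted p = 0.0318) on 4 and 19 UMIs in -EIPA and 14 and 44 in +EIPA. Ifitm3 was called higher with the block in ISC-like cells (0.43, adjusted p = 0.0158) and in goblet-like cells (1.01, adjusted p = 0.00123, where 6.06% of genes were called). Goblet-like cells held 3 Ifitm3 UMIs in each library of experiment 1 and 76 and 175 in experiment 2, and ISC-like cells 22 and 24 in experiment 1 and 626 and 589 in experiment 2. In Paneth-like cells, where 2.92% were called, Ifit1 had 0 and 1 UMIs in -EIPA and 12 and 31 in +EIPA (adjusted p = 9.39e-06), and no fold is given. Irf7 was not called in ISC-like or goblet-like cells, where its level in +EIPA was 0.646 and 0.805 times that in -EIPA in the 2 experiments for ISC-like cells, on 22 and 41 UMIs in -EIPA and 13 and 24 in +EIPA, and 0.814 and 0.936 times for goblet-like cells. These directions were not stable, since the edgeR log2 fold change was -0.37 in ISC-like and -0.15 in goblet-like cells, but 0.05 and 0.03 with clusters drawn at a resolution of 1.2. In EEC-like and tuft-like cells, where 1.86% and 0.759% of genes were called, none of the 9 was. Bst2 was higher in both experiments, without a call, in goblet-like (1.23-fold and 1.21-fold), EEC-like (2.00-fold and 1.23-fold) and tuft-like cells (1.87-fold and 1.28-fold). In enterocyte-like, Paneth-like and regenerative-like cells it was not higher in both. A difference between classes was not tested.

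Of the pathway lists, 93 genes were tested for EIPA over all cells kept, and 0 were called by edgeR without the block, with 19 at an unadjusted p under 0.05. The fold change was above 0 for 68 of the 93, with a median log2 fold change of 0.16, against 0.00 over all genes. By role, 26 of 31 antiviral effectors and all 6 receptors were above 0, but 6 of 13 kinases, STATs and IRFs were. Those of the largest fold changes, named after their values were seen, were the Ifit1 relatives Ifit3b (2.44, SE 0.44, adjusted p = 0.255) and Ifit3 (2.26, SE 0.45, adjusted p = 0.267) and Ly6a (2.22, SE 0.54, adjusted p = 0.326). Ifit3b and Ifit3 were near the floor, at 0.0247 and 0.0292 CPM and at 0.105 and 0.0501 CPM in -EIPA. Ifit1bl2, better counted, was at 5.23 and 3.20 CPM in -EIPA and 13.4 and 17.0 CPM in +EIPA (1.94, SE 0.28, edgeR adjusted p = 0.239). Among the named classes of the WT libraries, Isg15 and Ifit1 were highest in regenerative-like cells, of which Ly6a was a leading gene. These cells made up 1.09% and 1.64% of cells in -EIPA and 2.49% and 4.17% in +EIPA. The part of this share in the values over all cells was not tested.

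Between -Dox and +Dox none of the 9 genes differed over 2-fold, where 4.92% of all genes were over 2-fold higher and 0.755% over 2-fold lower with Dox. Each condition had 1 library, so there is no replicate check. Irf7 was nearest to the limit, with a log2 ratio of 0.98 (95% exact conditional interval of the counts 0.85 to 1.11), and Ifit1 followed at 0.78 (0.62 to 0.95). The ratio was 0.09 for Ifitm3 (0.07 to 0.11), -0.02 for Isg15 (-0.21 to 0.17) and 0.17 for Bst2 (0.12 to 0.23). Slfn9 was lower by 0.47 (ratio -0.47, interval -0.50 to -0.43), Slfn2 by 0.33 and Ifitm2 by 0.18 on the log2 scale. The median over all genes was -0.05. Over the pathway lists, 7 genes were over 2-fold higher with Dox, among them Ifit1bl1, Ifit1bl2, Oasl1 and Ly6a, and Ifi27l2a alone was over 2-fold lower.

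The Dox ratios differed between classes. Ifit1 in regenerative-like cells was at 2.87 CPM in -Dox and 11 CPM in +Dox, on 9 and 81 UMIs, and in EEC-like cells at 2.10 and 6.28 CPM, while in Paneth-like cells it was at 5.06 and 1.44 CPM. Slfn9 was lower with Dox in enterocyte-like cells (13.2 and 3.95 CPM) and regenerative-like cells (40.5 and 17.1 CPM), but close in ISC-like cells (131 and 113 CPM). Enterocyte-like cells were 13.6% of cells in -Dox and 19.8% in +Dox, and ISC-like cells 11.9% and 9.87%. With each class given equal weight, the Irf7 log2 ratio was 0.59 and that of Slfn2 -0.05. Barcodes that failed the limits held Ifit1 at 3.29 CPM in -Dox and 19.4 CPM in +Dox and Irf7 at 8.72 and 22.6 CPM, above the levels in the cells kept.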

How the data were processed

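The authors aligned reads to mm10 and counted UMIs per gene and barcode with Cell Ranger 6.1.2 (versions per the submitters' processing notes); the deposited values are raw counts of barcodes, without normalization. The 9 genes and all lists were chosen with earlier results of these data known.

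Barcodes entered the analysis with 1000 genes or more and less than 20% of their UMIs mitochondrial. These limits were chosen here, because the text of the study prints no values for its own. Pearson residuals (overdispersion 100) of 3000 genes, without the 9 genes and the pathway genes, were reduced to 45 components, corrected for library by a Harmony-type step (own-library neighbours 27.7%, uncorrected 56.5%) and clustered (20 neighbours, Leiden, resolution 0.8) with igraph 0.11.9, scikit-learn 1.9.0, scipy 1.17.1 and numpy 2.4.6 under Python 3.11.15. A cluster was named from at least 3 markers of a class among its 50 leading genes, and stayed unnamed when mitochondrial or rRNA-locus genes led it or another class had more markers among the leaders; this rule was set after the clusters were seen, names are rebuilt and may differ from the study's, and unnamed clusters held 27.7% to 37.4% of cells. The main values include doublets, and the cells of highest doublet score were left out in one alternative.

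Sums of counts over the cells of each library and class were tested with edgeR 4.0.16 (TMM, filterByExpr, quasi-likelihood, adjusted p threshold 0.05) in R 4.3.3, with DESeq2 1.42.0 as an alternative; scripts were tested on simulated data. The source data pair -EIPA and +EIPA libraries by experiment, and deviations from group means of same-numbered libraries correlated at 0.757 over 9138 genes. Apart from the pairing of experiments no source ties libraries to animals, so p-values measure the spread between these libraries. Named genes were all 9, per role the 2 pathway genes at 10 CPM or more with the largest log2 ratio between the lines, neighbours within 500 kb at 5 CPM or more, and the 5 most alike genes; other pathway genes, such as Psmb8, Irf9, Slfn4 and Slfn8, were named after their values were seen. Positions are from GENCODE M21 (mm10), and sequences from RefSeq promoters (GRCm38.p6). Intervals are 95% and cover counting error only. Some genes, the guide's target included, are not reported here.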

Additional observations from a re-analysis of the deposited data

How the results depend on the processing

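Over all cells kept, edgeR called 0 genes for EIPA and 0 of the 9 described here, DESeq2 614 and 3, no filter on low counts 198 and 2, and the replicate block 839 and 4; without 1 library in turn the counts were 0 to 137 and 0. Summed over classes the counts were 52 and 0, with DESeq2 839 and 4, library size scaling 155 and 1, no filter 2598 and 9, the replicate block 4761 and 12, the strict cell filter 92 calls, and without 1 library in turn 224 to 2491 and 1 to 5 (2491 and 5 without -EIPA replicate 1). The cause of these differences was not tested. The genes over 2-fold with Dox went from 0 to 1 (Irf7) with TMM-scaled CPM, every deposited barcode or doublets removed. Between the lines 5 became 4 with equal weight for each class and, without -EIPA replicate 1, 6, the added one being Ifitm1, which was lower in -Dox (log2 ratio -1.27). Without -EIPA replicate 2 the Ifitm3 log2 ratio was 8.25. The EIPA fold change of Ifitm3 ranged from -3.35 to 3.32, that of Slfn2 from -0.95 to 1.29 and that of Ifitm1 from -0.46 to 1.10 as single libraries were left out, and the adjusted p over all alternatives from 2.46e-05 to 0.881 for Isg15 and from 3.06e-05 to 0.809 for Ifit1. With library size in place of TMM the median of all genes shifted to -0.09. A low count limits Ifitm1, Isg15 and Ifit1, with 62 to 874 UMIs per library. It also limits Ifitm3 (79 and 77 UMIs) and Slfn2 (161 and 196 UMIs) in -EIPA 1 and +EIPA 1.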
